A study of Planococcus citri with 8 samples.

Results

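The gene models g20794 and g392 of the citrus mealybug, *Planococcus citri*, are 2 of the 40620 gene models in the count table. They were chosen on their measured values. Both are among the most abundant transcripts of mated females, high in 1 pool of virgin females and low in the other virgin pools, and neither carries an InterPro entry, the label for a known protein domain or family. Their levels in virgin and mated females are therefore given as a description, with no test. The study sequenced polyadenylated RNA from 4 pools of virgin females and 4 pools of mated females of 1 laboratory colony reared on lemons, with approximately 150 whole adult insects (approximately 100 mg) in a pool. The virgin females grew on lemons set apart from the colony, from which the male cocoons were taken off by needle, and the mated females came from the stock colony after ovisacs had appeared. Mating, egg laying and rearing thus differed together, and their effects cannot be told apart. The labels number the virgin pools 2, 3, 5 and 6 and the mated pools 8, 9, 10 and 11.

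A mealybug female that has mated makes yolk for her eggs and lays them into an ovisac, a pouch of wax threads. Yolk comes from vitellogenins, large lipid-carrying proteins that insects make mainly in the fat body and ship to the ovary. A gene model without an InterPro entry has a predicted protein with no domain match in the annotation used here. No role is therefore given for g20794 or g392, and other annotation of their transcripts was not examined. The RefSeq table for this species matched 0 of the 2 gene models, and no sequence of either is shown.

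The libraries held 29667566 to 50301861 counts of uniquely mapped read pairs in gene models. A single count was worth 0.0199 to 0.0337 CPM, the count scaled to a common library size, so counting error is small for both genes and the spread between pools limits the comparisons. CPM values here are scaled by TMM, a factor for each library that makes most genes equal between libraries, and they are not divided by transcript length. Read pairs of near-identical gene copies are lost when only unique matches are kept, and the sources used here do not say whether counting used strand. In whole insects, fewer cells of a type and less RNA per cell cannot be told apart.

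g20794 lies on scaffold PCITRI_00054 and g392 on scaffold PCITRI_00006 of the Pcitri.v1 genome. g20794 had 5559 CPM in virgin replicate 2, against 927, 329 and 705 CPM in virgin replicates 3, 5 and 6. In mated replicates 8, 9, 10 and 11 it had 5972, 6696, 8943 and 7860 CPM. Virgin replicate 2 thus stood just below the lowest mated pool, and the other virgin pools stood far below it, with no overlap between them and the mated pools. These levels rest on 197905 counts in virgin replicate 2, on 12750 to 28320 in the other virgin libraries and on 210911 to 429628 in the mated libraries.

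g392 had 6708 CPM in virgin replicate 2, against 1054, 369 and 731 CPM in virgin replicates 3, 5 and 6. In mated replicates 8, 9, 10 and 11 it had 5578, 5955, 7840 and 7043 CPM. Virgin replicate 2 fell inside the mated range for this gene, between mated replicates 9 and 11. The counts behind these levels were 238813 in virgin replicate 2, 14310 to 32198 in the other virgin libraries and 197007 to 376625 in the mated libraries.

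**Figure D1:**
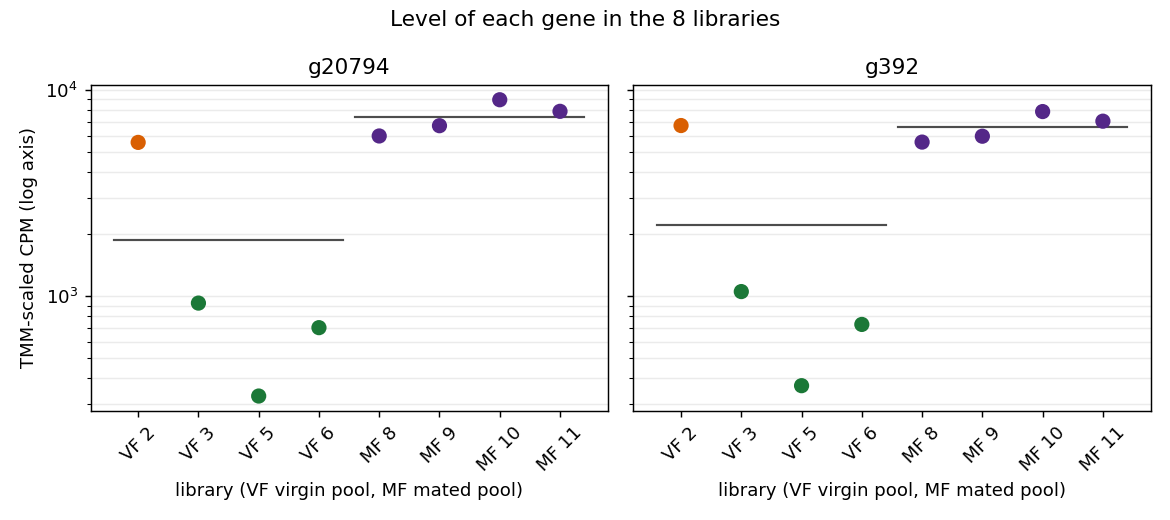
Level of g20794 (left) and g392 (right) in each library, in TMM-scaled CPM on a log axis; points are libraries (VF virgin, MF mated, with replicate 2 of the virgin pools in orange) and horizontal lines are the group means. In both genes virgin replicate 2 sits near the mated pools, at 5559 and 6708 CPM, while the other virgin pools lie at or below 1054 CPM.

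As a share of its own gene's mated mean, virgin replicate 2 reached 75.5% for g20794 and 102% for g392. Virgin replicates 3, 5 and 6 reached 4.46% to 12.6% for g20794 and 5.59% to 16.0% for g392. The level in virgin replicate 2 was 8.51 times the mean of the other virgin pools for g20794 and 9.34 times for g392. It was 6.0 and 6.37 times that of the next highest virgin pool. Both genes placed the pools in the same order, with virgin replicate 2 above replicates 3, 6 and 5 and mated replicate 10 above replicates 11, 9 and 8.

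The group summaries reflect that 1 pool. g20794 averaged 1880 ± 2465 CPM in virgin females and 7368 ± 1307 CPM in mated females (SD, n = 4 each), a fitted log2 fold change of virgin over mated of -1.97 (SE 0.778). Without virgin replicate 2 the virgin mean was 654 ± 302 CPM (SD, n = 3) and the log2 fold change was -3.50 (SE 0.329). g392 averaged 2215 ± 3008 CPM in virgin females and 6604 ± 1031.5 CPM in mated females (SD, n = 4 each), a log2 fold change of -1.58 (SE 0.806). Without virgin replicate 2 these became 718 ± 343 CPM (SD, n = 3) and -3.21 (SE 0.324). Across all 21179 genes tested the median log2 fold change was 0.03. The choice of the genes used this contrast, in which 21.3% of all genes tested were called lower and 26.4% higher in virgin females (edgeR quasi-likelihood test, Benjamini-Hochberg adjusted p under 0.05), and nothing is read from these shares for the members.

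The spread between pools also differed. Between mated pools the coefficient of variation was 17.7% for g20794 and 15.6% for g392, beside a median of 14.4% for the 50 genes most abundant in mated females. Between virgin replicates 3, 5 and 6 it was 46.3% for g20794 and 47.7% for g392, where the highest pool had 2.82 and 2.85 times the level of the lowest.

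The pair took a sizeable part of each library. Together g20794 and g392 held 1.27% of all counts in virgin replicate 2, against 0.204%, 0.0671% and 0.144% in virgin replicates 3, 5 and 6. In mated replicates 8 to 11 their shares were 1.23%, 1.24%, 1.60% and 1.45%. Virgin replicate 2 lay within the mated range, between replicates 9 and 11. The smallest share, in virgin replicate 5, had a 95% Wilson interval of 0.0663% to 0.0679%, which covers counting error only. By CPM within a library, g20794 ranked 6th in virgin replicate 2 and 5th to 7th in the mated libraries, while it ranked 99th, 520th and 173rd in virgin replicates 3, 5 and 6. g392 ranked 5th in virgin replicate 2 and 6th to 8th in the mated libraries, against ranks of 84, 446 and 157 in the other virgin libraries. These ranks order read pairs and not transcripts per length.

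The 2 genes did not keep a fixed proportion. The ratio of g20794 to g392 counts was 0.8287 in virgin replicate 2 and 0.880, 0.891 and 0.965 in virgin replicates 3, 5 and 6. It was 1.07, 1.12, 1.14 and 1.12 in mated replicates 8, 9, 10 and 11. All virgin pools thus had more g392 than g20794 counts and all mated pools the opposite, and no scaling between libraries enters this ratio. The means were 0.891 ± 0.056 in virgin and 1.11 ± 0.030 in mated females (SD, n = 4 each), a difference in mean log2 ratio of -0.32, virgin minus mated. The virgin library nearest the mated range, replicate 6, had a 95% counting interval of 0.949 to 0.981, and the mated library nearest the virgin range, replicate 8, one of 1.06 to 1.08. Virgin replicate 2, which resembled mated pools in the level of both genes, had the lowest ratio of all 8 libraries. The levels of both genes were used to choose them, so the ratio is not tested.

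**Figure D2:**
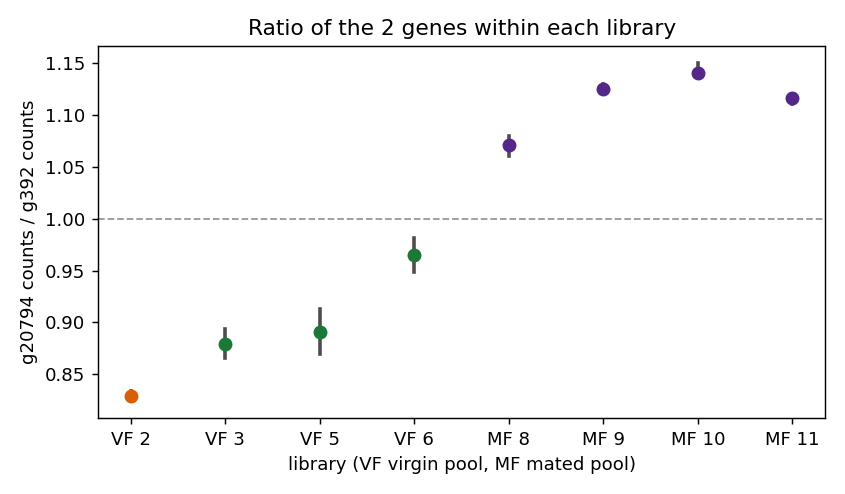
Ratio of g20794 to g392 counts in each library (VF virgin, MF mated, virgin replicate 2 in orange); bars are 95% intervals from counting error alone, and the vertical axis does not start at 0. The virgin pools lie at 0.8287 to 0.965 and the mated pools at 1.07 to 1.14, on either side of the dashed line at 1.

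By mean CPM in mated females g20794 ranked 6th and g392 8th of all gene models. The 4 most abundant of all, g892, g891, g33039 and g37912, carry the InterPro entry of the lipase/vitellogenin family, which covers fly yolk proteins and lipases. They too were higher in virgin replicate 2 than in the other virgin pools, but stayed further from the mated level than g20794 and g392. Virgin replicate 2 stood at 24.2% of the mated mean for g892, 15.8% for g891, 33.5% for g33039 and 16.5% for g37912, beside 75.5% for g20794 and 102% for g392. The other virgin pools averaged 3.21%, 2.30%, 4.28% and 4.22% of the mated mean for these 4 genes, beside 8.87% for g20794 and 10.9% for g392. The 4 genes also varied more between mated pools, with coefficients of variation of 25.4% to 33.7%.

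The remaining genes of the 10 most abundant behaved differently from g20794 and g392, except for g1104. That gene, with the entry of the thiol-activated cytolysins, a family of pore-forming toxins known from bacteria, stood at 52.4% of the mated mean in virgin replicate 2 and at 10.8% in the other virgin pools. g10833, a heat shock protein 70 chaperone, stood at 161% and 116%, and g25380, which has no InterPro entry, at 124% and 133%. g1454, an actin of the cytoskeleton, stood at 86.0% and 62.7%.

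Of the 50 genes most abundant in mated females, 14 had a mean in virgin replicates 3, 5 and 6 of at most 25% of the mated mean, and 9 of these 14, g20794 and g392 included, had no InterPro entry, as had 14 of the 50. The level of these 14 in virgin replicate 2 ranged between 11.5% and 102% of the mated mean, with a median of 28.8%. g392 and g20794 were the highest of them, and the next one, g1104, was at 52.4%. Being high in virgin replicate 2 was part of how both genes were chosen, so their place in this order is a description.

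**Figure D3:**
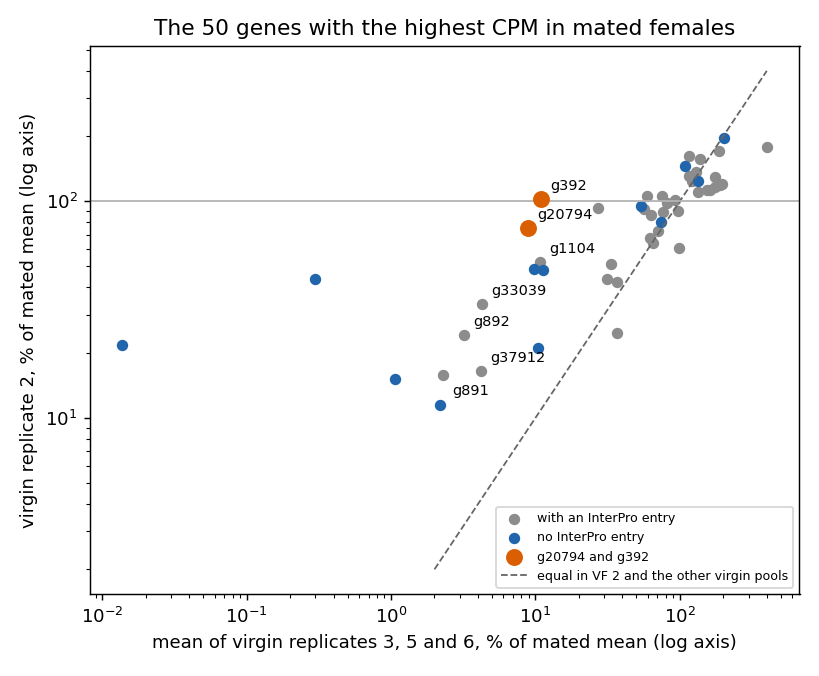
The 50 genes with the highest mean CPM in mated females, with virgin replicate 2 on the vertical axis and the mean of virgin replicates 3, 5 and 6 on the horizontal axis, each as a percentage of the gene's mated mean on log axes; blue points have no InterPro entry. g20794 and g392 (orange) lie at 8.87% and 10.9% on the horizontal axis and at 75.5% and 102% on the vertical one, well above the dashed line of equal levels.

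Among all genes with a mated mean of at least 10 CPM, 317 shared the low level in the other virgin pools, g20794 and g392 included. In these 317, virgin replicates 3, 5 and 6 were each at most 25% of the mated mean. Virgin replicate 2 was at a median of 21.1% of the mated mean over these 317 genes, with quartiles of 9.35% and 43.8%. Of the 315 genes besides g20794 and g392, 18 (5.71%) were at or above g20794 and 5 (1.59%) at or above g392. In this set the level in virgin replicate 2 thus mostly stayed well below that of mated females. The choice of g20794 and g392 required a high level in that library, so their place in the set is a description.

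Neither gene was silent in the other virgin pools. A stricter set of 82 genes had each of virgin replicates 3, 5 and 6 at 1% of the mated mean or less. Their median level in virgin replicate 2 was 8.17% of the mated mean and their highest 97.5%. g20794 and g392 lie outside this set, since they kept at least 4.46% and 5.59% of the mated mean in every virgin pool. Among the 2066 genes with a mated mean of at least 100 CPM, 13 had virgin replicate 2 at 20% or more and each other virgin pool at 5% or less. The limit of 5% left out g20794 and g392, and 11 of the 13 had no InterPro entry, beside 354 (17.1%) of the 2066. With limits of 50% and 25%, chosen after the values were seen, 16 genes passed, g20794 and g392 included, of which 10 had no InterPro entry. Those with the highest mated means after g392 were g1104 and g3418, the second of them without an InterPro entry. g3418 had 828 CPM in virgin replicate 2, against 162, 84.8 and 81.9 CPM in virgin replicates 3, 5 and 6, and 727 to 1164 CPM in mated females.

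The 8 most abundant of the 13 were g892, described above, and 7 gene models without an InterPro entry. They differ from g20794 and g392 in that several were at or near 0 counts in the other virgin libraries. g30735 had 527 CPM in virgin replicate 2, 2.84 to 5.01 CPM in the other virgin pools and 994 to 1427 CPM in mated pools. g28761 had 261 CPM, against 0.0258 to 0.393 CPM, with 992 to 1394 CPM in mated pools, and g11812 had 234 CPM, against 0 to 0.131 CPM, with 414 to 639 CPM in mated pools. g8951, g8952 and g8954, whose numbers place them close together, had 102, 101 and 198 CPM in virgin replicate 2, at most 0.0655 CPM in the other virgin pools and 233 to 432 CPM in mated pools. A count of 0 in a virgin library allows up to 0.0744 to 0.101 CPM. g23667 had 53.0 CPM in virgin replicate 2, at most 0.196 CPM in the other virgin pools and 124 to 179 CPM in mated pools.

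The genes with profiles closest to those of g20794 and g392 were looked for among 9961 tested genes with a mated mean of at least 10 CPM. Likeness was the root-mean-square difference of log2 CPM over the 8 libraries after each gene was centred on its own mean. By this measure each of the 2 genes was the nearest to the other, at 0.172 log2 units, where the median over all candidates was 1.70 for g20794 and 1.60 for g392. Both were chosen for a like pattern over these same libraries, so a small distance between them is no separate result. By Pearson correlation over the same 8 libraries (r = 0.9967) g392 came 4th for g20794 and g20794 6th for g392. Within 0.5 log2 units lay 25 genes for g20794 and 26 for g392. The 8 points of each profile fall into a high and a low cluster, so the correlation is used only to order genes and has no p.

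After g392, the genes nearest to g20794 were g3038 at 0.185 log2 units, g28086 at 0.230, g24496 at 0.265, g34615 at 0.289 and g40242 at 0.302. g3038 has a papain-type cysteine peptidase domain and g34615 a trypsin-type serine peptidase domain, both of which cut proteins. g40242 belongs to glycoside hydrolase family 79, enzymes that cleave sugar chains, and g28086 and g24496 have no InterPro entry. After g20794, the genes nearest to g392 were g28086 at 0.189, g3038 at 0.229, g8743 at 0.242, g34615 at 0.297 and g27232 at 0.306. g8743 carries the entry of odorant-binding protein A10 and ejaculatory bulb-specific protein 3, a family of small soluble insect proteins, and g27232 that of a domain found in catalases, which break down hydrogen peroxide.

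These 7 genes were all far less abundant than the pair. g3038 had 45.2 CPM in virgin replicate 2, against 9.03, 3.69 and 5.40 CPM in virgin replicates 3, 5 and 6, and 58.0 to 75.8 CPM in mated females. g28086 had 25.5 CPM, against 4.52, 1.06 and 3.18 CPM, and 22.0 to 31.2 CPM in mated females. g8743 had 57.9 CPM, against 10.8, 3.82 and 6.26 CPM, and 36.0 to 59.0 CPM in mated females. The most abundant of the 7 was g40242, with 640 CPM in virgin replicate 2, against 74.1, 39.3 and 43.4 CPM in the other virgin pools and 539 to 902 CPM in mated females. Relative to the mated mean, virgin replicate 2 was at 49.1% to 121% in the 7 genes. Replicate 5 was the lowest virgin pool in each of them, as in g20794 and g392.

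**Figure D4:**
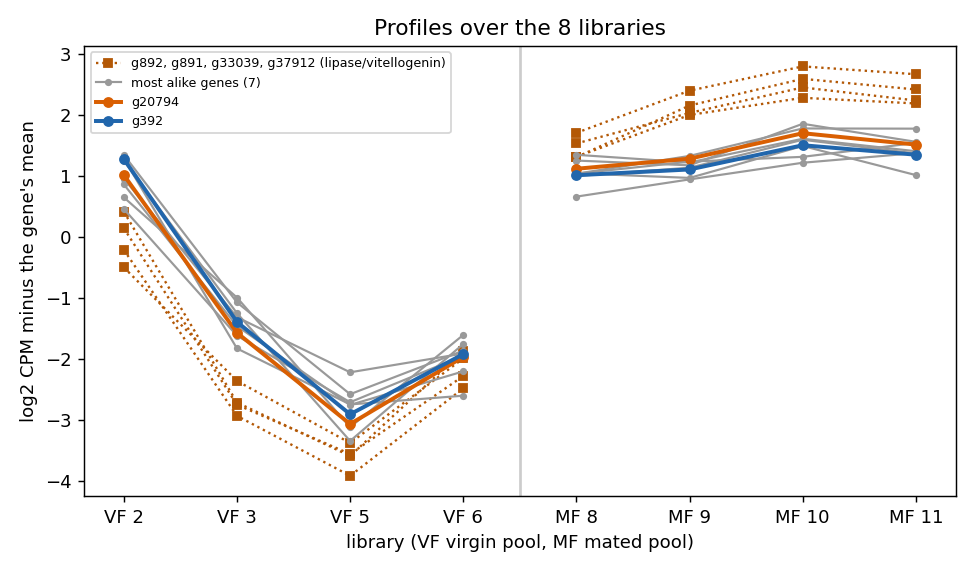
Log2 CPM in each library minus the gene's mean over the 8 libraries, for g20794 (orange), g392 (blue), the 7 other genes nearest to either (grey) and the 4 lipase/vitellogenin genes g892, g891, g33039 and g37912 (brown, dotted); lines join libraries of 1 group only to guide the eye. g20794 and g392 run 0.172 log2 units apart on average (root mean square), and the lipase/vitellogenin genes lie lower in virgin replicate 2 and higher in mated pools.

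The position of the genes on their scaffolds was not used to choose them. The files give scaffolds and gene numbers but no coordinates, so neighbours were taken as the 5 gene models on either side by number. Of 20 neighbours, 11 had enough counts to be tested. Of these 11, 0 were called higher and 1 lower in virgin females (edgeR quasi-likelihood test, adjusted over all genes tested), where 26.4% and 21.3% of all genes tested were called. At an unadjusted p under 0.05, and by DESeq2 and limma voom, the number higher was also 0. The neighbours lower in virgin females numbered 5 without virgin replicate 2, where the number over all genes also rose, to 6724 against 4514. Under other scalings and tests the number of neighbours was 1 to 5, beside 4079 to 5432 over all genes.

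g20794 lay among gene models with little or no signal. Of its 10 neighbours 8 had at most 1 count over all libraries. The other two were g20789, with 46.7 CPM in virgin replicate 2, 37.1 to 42.8 CPM in the other virgin pools and 32.1 to 40.8 CPM in mated pools, and g20793, below 1 CPM throughout. They had log2 fold changes of 0.19 (adjusted p = 0.203) and 0.25 (adjusted p = 0.553).

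The neighbours of g392 were mostly expressed. The next gene model, g393, has no InterPro entry and had 1160 counts in virgin replicate 2, against 14, 2 and 10 counts in virgin replicates 3, 5 and 6 and 2185, 2274, 4080 and 2521 counts in mated replicates 8 to 11. In CPM this was 32.6 in virgin replicate 2, 0.0516 to 0.458 in the other virgin pools and 55.4 to 84.9 in mated pools. g393 thus showed virgin replicate 2 apart from the other virgin pools more widely than g392 did, at a far lower level. Its log2 fold change was -3.04 (adjusted p = 0.134), and -8.12 without virgin replicate 2 (adjusted p = 4.57e-05). Over all alternatives its adjusted p ran between 4.57e-05 and 0.225.

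g397, with a protein kinase domain, was the neighbour of g392 called lower in virgin females, with a log2 fold change of -0.77 (SE 0.180, adjusted p = 0.00976). It had 258 CPM in virgin replicate 2, 152 to 164 CPM in the other virgin pools and 287 to 345 CPM in mated pools. g389, of the stathmin family of microtubule regulators, g395, with a DBB domain, and g396, of the FAR-17a/AIG1-like family, had adjusted p-values of 0.073, 0.0544 and 0.0548. Their log2 fold changes were -0.74, -0.57 and -1.07, and they passed the threshold without virgin replicate 2, at adjusted p-values of 0.000434, 0.00971 and 0.000258. Their highest adjusted p-values over all alternatives were 0.158, 0.136 and 0.130, and that of g397 was 0.0318. On g391, the model just before g392 with a multicopper oxidase domain, the log2 fold change was -0.10 (adjusted p = 0.688). g394, with a lipocalin or fatty-acid binding domain, ran against g392, at 1.66 CPM in virgin replicate 2, 4.45 to 195 CPM in the other virgin pools and 2.17 to 43.9 CPM in mated pools, and did not pass (adjusted p = 0.276).

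**Figure D5:**
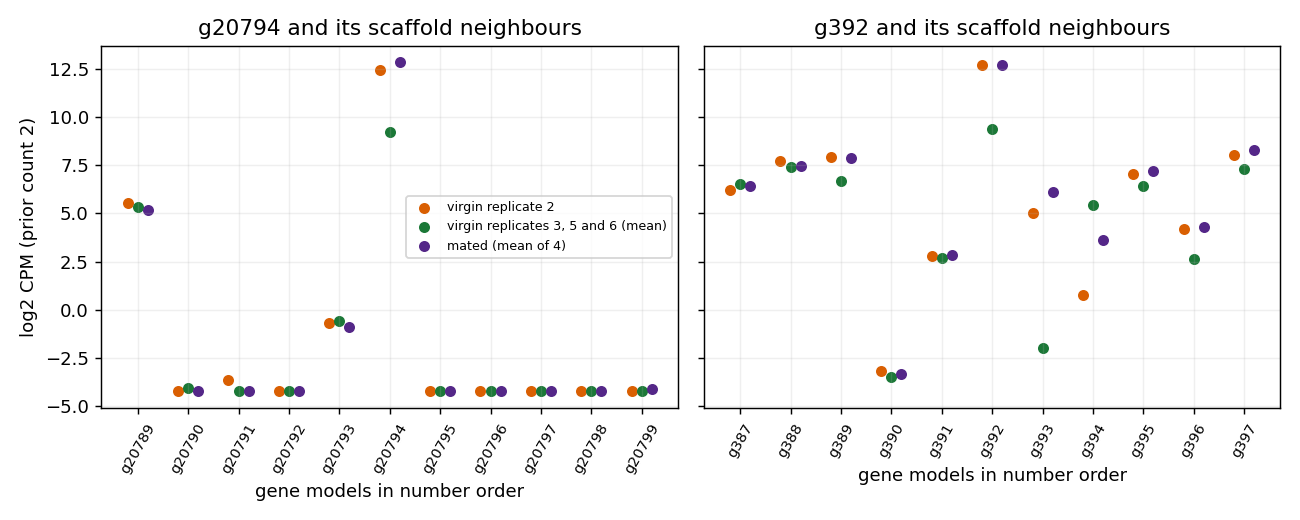
Log2 CPM (prior count 2) of g20794 (left) and g392 (right) with the 5 gene models on either side in number order; points are virgin replicate 2 (orange), the mean of virgin replicates 3, 5 and 6 (green) and the mean of the 4 mated libraries (purple). Of the 10 neighbours of g20794, 8 lie at or near the lowest value shown, and g393, next to g392, has its orange and purple points far above the green one.

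Over the whole of both scaffolds, 52 other gene models were tested, of which 13 were called higher and 8 lower in virgin females. Over all genes tested the shares were 26.4% and 21.3%, and nothing particular to these scaffolds is read from the counts. The scaffold of g20794 holds 49 gene models and that of g392 53. No other model on them came near the pair, the highest mated mean being 695 CPM beside g20794 and 490 CPM beside g392.

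Virgin replicate 2 was the highest or lowest virgin pool in many genes besides g20794 and g392. Its level was above all other virgin pools in 8113 of the 21179 genes tested and below all of them in 8304. Any pool is the highest of its group in some genes and the lowest in others by chance. Such counts were not made for the other virgin pools, so whether these exceed chance was not tested. The same limit holds for the counts of this kind in the gene lists. The yolk and lipid transport list took every gene whose InterPro description names vitellogenin or a lipid transport protein. It thus includes the lipase/vitellogenin entry, which covers lipases too, and how many of its genes encode yolk proteins was not examined. Summed over the 42 tested genes of this list, virgin replicate 2 had 25056 CPM. The other virgin pools had 2985 to 6363 CPM and the mated pools 64492 to 136760 CPM. Most of this sum in virgin replicate 2 came from g892, g891, g33039 and g37912, described above, with 8803, 5041, 7776 and 2403 CPM. The place of virgin replicate 2 among the virgin pools varied within the list. It was above all other virgin pools in 12 of the 42 and below all of them in 24. Over 26 genes of DNA replication and mitosis it had 1657 CPM, the other virgin pools 1036 to 1169 CPM and the mated pools 1918 to 2357 CPM, and it was above all other virgin pools in 24 of the 26 and below all of them in 1. Over 165 ribosomal protein genes the sum was 48493 CPM, against 64297 to 72290.5 CPM in the other virgin pools and 36059.5 to 40758 CPM in mated pools. Over 38 muscle genes it was 8061 CPM, against 13829 to 14709 CPM in the other virgin pools and 5116 to 6949 CPM in mated pools. Virgin replicate 2 was above all other virgin pools in 9 of the 165 ribosomal protein genes and below all in 143, and in 9 and 23 of the 38 muscle genes.

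Virgin replicate 2 stood elsewhere on 2 of the 3 remaining lists, with a summed level within that of the other virgin pools for homeobox genes and below all other pools for cuticle proteins. The 33 homeobox genes, regulators of embryonic patterning, summed to 326 CPM in virgin replicate 2, 318 to 336 CPM in the other virgin pools and 456 to 548 CPM in mated pools. Gene by gene, virgin replicate 2 was above all other virgin pools in 9 of the 33 and below all of them in 21. The 15 genes with sperm tail and axoneme entries summed to 322 CPM in virgin replicate 2, 362 to 376 CPM in the other virgin pools and 267 to 296 CPM in mated pools, and virgin replicate 2 was above all other virgin pools in 3 of the 15 and below all of them in 9. Of the genes on the homeobox, sperm tail and yolk and lipid transport lists 0 were at 0 counts in virgin replicate 2. The 43 insect cuticle protein genes summed to 562 CPM in virgin replicate 2, below both the 2693 to 10427 CPM of the other virgin pools and the 789 to 1400 CPM of the mated pools, and it was above all other virgin pools in 2 of the 43 and below all of them in 38. The part of any of these differences in the levels of g20794 and g392 was not tested.

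Between virgin and mated females, the lists gave the following counts in the edgeR fit. Of the 42 yolk and lipid transport genes 12 were called higher and 7 lower in virgin females (median log2 fold change 0.18), of 26 DNA replication genes 0 and 19 (-0.60), of 165 ribosomal protein genes 141 and 0 (0.65) and of 38 muscle genes 17 and 9 (0.24). Of 33 homeobox genes 5 were higher and 10 lower (-0.14), of 15 sperm tail genes 8 and 1 (0.49) and of 43 cuticle genes 24 and 6 (2.71), beside 26.4% higher, 21.3% lower and a median of 0.03 over all genes tested. The counts of 0 were also 0 at an unadjusted p under 0.05 and by DESeq2 and limma voom. Several of the other counts changed with 1 library or with the scaling, filter or test. Without virgin replicate 2, 11 yolk and lipid transport genes, 3 sperm tail genes and, against the count of 0 above, 1 ribosomal protein gene were lower and 8 homeobox genes were higher. Calls rose over all genes too without that library, to 6724 lower and 6891 higher, against 4514 and 5595. Without virgin replicate 3 or mated replicate 11, 12 DNA replication genes were lower, and without mated replicate 11, 7 yolk and lipid transport genes were higher. The cuticle genes that were higher numbered 14 without either virgin replicate 6 or mated replicate 10 and 11 without mated replicate 11, and 9 by limma voom. The homeobox genes that were higher numbered 0 to 3 without any 1 of the other 7 libraries, 1 with upper-quartile factors, 1 without a filter on low counts and 2 by limma voom. The sperm tail gene that was lower was lost without any of virgin replicates 3 and 6 and mated replicates 8 to 11.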

How the data were processed

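Gene expression was measured in 8 pools by paired-end RNA-seq. The counts, as the authors deposited them, give for each Pcitri.v1 gene model the whole number of read pairs that CLC Genomics Workbench mapped uniquely. The authors also deposited log2 CPM for 17669 genes. The median difference from the values computed here was 0.184 to 0.262 log2 units in a library. A deposited table further gives an InterPro entry per gene (no other value), from which annotations and the 7 gene lists were taken. Its columns of the authors' log2 fold changes and adjusted p-values were not used. Tools named in the submitters' processing notes are limma 3.34.9, edgeR 3.20.9, R 3.4.2 and FastQC.

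The counts were fitted here with edgeR 4.0.16 in R 4.3.3 (filterByExpr, TMM, glmQLFit and glmQLFTest on condition alone, 21179 of 40620 gene models tested, Benjamini-Hochberg adjusted p under 0.05). CPM on a log2 scale used a prior count of 2. The test was tried on simulated data before use. Pools were taken as replicates, and p-values measure only the spread between them. Alternatives were other scalings and filters, DESeq2 1.42.0, limma voom 3.58.1 and leaving out each library.

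The genes, lists and limits were chosen with earlier results of these data known. The genes named are g20794 and g392, the 10 with the highest mated mean, the 6 nearest in profile to each, the 5 gene models on either side, and up to 8 with the same pattern by mated mean under limits of 20% and 5%. Annotated genes nearest in profile (3 each) were among the 6. No single gene of a list was named for its call. g3418 was named after its values were seen.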

Additional observations from a re-analysis of the deposited data

Results flagged for a closer look

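In 72 groups of 4 libraries, formed by 35 genes and the ratio of g20794 to g392 in virgin or in mated females, the highest or lowest library was checked for its distance from the rest, as the gap to its nearest library divided by the range of the group. The limit used (Dixon's critical value for 4 samples) is passed by chance in about 5% of groups. It was passed in 23 groups, and in 21 of them virgin replicate 2 was the highest virgin library. Many of the 35 genes were chosen for a high level in that library or for a profile like that of the pair. The 5% therefore gives no expected number for these groups, and nothing is read from the 23. g20794 and g392 passed it in virgin females, at 0.886 and 0.892, through the same library on which they were chosen. So did g892 at 0.881, g891 at 0.858, g33039 at 0.847 and g10833 at 0.859 among the most abundant genes. Of these, g892 is also among the genes with the same pattern, named below. Of the genes nearest to the pair in profile, g3038 (0.871), g28086 (0.859), g24496 (0.858), g40242 (0.942), g8743 (0.870) and g27232 (0.891) passed it, which their selection by likeness makes no separate result. On the scaffold of g392, g393 had 0.988 and g397 had 0.887. Of the genes with the same pattern, whose limits require this library to be high, g30735 and g23667 had 0.996, g28761 and g11812 had 0.999, and g8951, g8952 and g8954 had 1.0. In the other two groups another library was apart. g27232 was highest in mated replicate 10, at 0.877, and g20793, next to g20794, in virgin replicate 3, at 0.927.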

How the results depend on the processing

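No paired analysis was possible because the labels give virgin and mated pools no replicate number in common. Of 570 values recomputed, 0 changed direction among called values, but many were counts, ranks or percentages that have no direction. Among the main results 17 values were marked as moved. Among the others 27 were marked as moved, and 16 values of neighbours passed the threshold they had missed. Leaving out each library in turn moved the log2 fold change of g20794 between -3.505 and -1.644 and that of g392 between -3.212 and -1.247, in each case lowest without virgin replicate 2. The number of scaffold neighbours lower in virgin females was 3 with RLE size factors, 4 with upper-quartile factors, 4 with DESeq2 and 5 with limma voom, against 1, and 1 to 5 with a library left out. Over all genes the numbers lower were 4725, 5334, 5432 and 4982, against 4514, and 3438 to 6724 with a library left out. Counted over whole scaffolds, 13 of 52 were higher and 8 lower, beside 26.4% and 21.3% of all genes tested. Genes with the same pattern numbered 39 with a mated mean of at least 10 CPM, against 13. The rank of g392 in likeness to g20794 was 4 by Pearson correlation and 1 to 3 with a library left out, and that of g20794 in likeness to g392 was 6 and 1 to 3. The level in virgin replicate 2 stayed between 70.2% and 79.2% of the mated mean for g20794 and between 94.6% and 107% for g392 under every scaling, the deposited log2 CPM and each library left out.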
